A study of Macaca mulatta with 17 samples.

Results

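The genes that copy DNA in S phase were followed in the fetal rhesus macaque uterus, as a set of 40 genes given by name, from the factors that load the replicative helicase to the polymerases, the enzymes that make DNA precursors and the factors that switch the program on. All 40 had a probe on the array, out of 20217 probes with 17166 distinct names. RNA from the uterus of each of 17 female fetuses was measured on its own Agilent 1-color rhesus macaque array. There were 5 control and 5 BPA-exposed uteri at gestation day (GD) 100, and 4 control and 3 BPA-exposed uteri at about GD165, labeled as 165 to 168 days. Per the study, 5 stillborn fetuses of the GD165 groups, 3 of them exposed and the others controls, were left off the arrays. Dams of the exposed fetuses ate fruit holding 400 µg/kg of deuterated bisphenol A (BPA), a plastics monomer with weak estrogen activity, each day from GD50 to 100 or from GD100 to 165, and control dams ate fruit with the ethanol vehicle over the same days. GD100 fetuses were delivered by caesarean section and GD165 fetuses vaginally, so age and mode of delivery cannot be told apart. A piece of each uterus, from fundus to cervix, gave bulk RNA in which all its cell types were mixed, and a smaller number of dividing cells cannot be told apart from less of these transcripts per cell.

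Before a cell copies its genome, the origin recognition complex, CDC6 and CDT1 load the MCM2-7 helicase onto origins. CDC45 and other partners switch the helicase on, the polymerases then extend primers at the fork, and PCNA, a ring loaded by the RFC complex, holds them on the template. E2F factors drive transcription of most of these genes as a cell commits to division, so the set is low in resting tissue and high where cells divide, as they do in a growing fetal uterus.

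Each gene was read by a 60-base probe. Stretches of probes for the MCM family are shown because 2 of its members, MCM6 and MCM10, varied far more between animals than its other genes. The first 30 bases of each are printed in lower case as the array annotation lists them, with nothing capitalized because no site within them is marked.
MCM2: atccacaaagatttggtttgaggcagtcag
MCM3: gcaccagttaaggcgaatatatattgtacc
MCM5: cctctagcgcagttctggcaagtgtgcttt
MCM6: agacttagctatgatcagtattttcatgag
MCM7: gaggagcccctctttctcctatgctgcact
MCM10: tgggtggaaggtgctgtatctaactcgtat
Over the whole 60 bases, no pair among the probes of the 7 MCM genes shared a run of more than 8 bases. None of the 40 probes shared a run of more than 16 bases with a probe of another name. The probe of RRM2, an autosomal gene, and that of RPA3 are annotated to chromosomes other than those of their genes, so signal shared with near-identical copies could not be separated for them. CHAF1A was matched through a description as similar to the human gene. RFC3 had 2 probes, of which the second was well above background on 0 of 17 arrays, and the brighter was used.

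Levels are log2 signals on a scale where the 75th percentile of every array is 12.62. Differences were fitted with limma to all 17 arrays and all probes, with an adjusted p of 0.01 as the threshold. The share of spots that were well above background ran from 83.8 to 89.0% over the arrays. Of the 40 probes, 39 were well above background on every array, and MCM6 was so on all but 1 of the 3 GD165 exposed arrays. Of 10 uterus markers, 9 were well above background on every array, and PGR, the progesterone receptor gene, was so on none (0 arrays). The labels name animals but no litter or extraction batch, and the p-values measure the spread between these animals.

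Replication genes were lower in the older uteri. In controls, all 40 genes were lower at GD165 than at GD100, and 34 passed the threshold. Over all probes, 49.5% were lower at GD165 and 5.2% passed with a lower level. The median difference of the 40 genes was -0.88, a fold of 1.84, against 0.00 for the median of all probes. For 33 genes the 4 GD165 controls did not overlap the 5 GD100 controls, all of them lower at GD165, which held for 9.9% of all probes. For 30 genes every one of the 7 GD165 arrays, exposed or not, lay below every one of the 10 GD100 arrays, against 4.7% of all probes. The heat map of levels by animal shows this step between the ages across all of the roles.

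**Figure D1:**
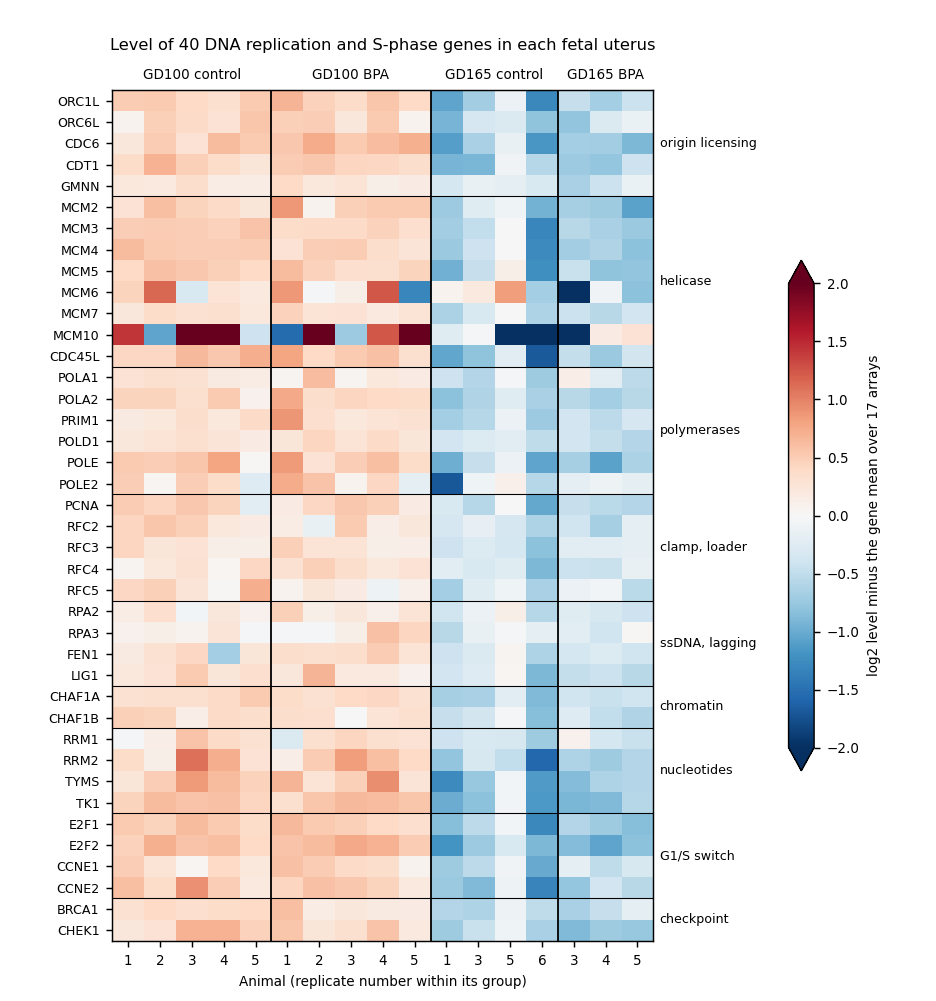
Level of each of the 40 genes (rows, grouped by role) on each of the 17 arrays (columns, grouped by age and exposure), as log2 level minus the mean of that gene over the arrays. Red is above the mean and blue below, with the color limited at 2 in either direction. The GD100 arrays are mostly red and the GD165 arrays mostly blue, while MCM6 and MCM10 vary widely within groups.

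Among the 5 genes of origin licensing, 5 fell with age in controls. ORC1L, the largest subunit of the origin recognition complex, changed most. Its levels were 10.41, 10.41, 10.28, 10.22 and 10.41 in the GD100 controls and 8.83, 9.19, 9.77 and 8.60 in the GD165 controls, so the groups were separate by a wide margin. The difference was -1.25 ± 0.17 (SE, adjusted p = 0.000156). ORC6L, another subunit of the complex, fell by 0.95 on the log2 scale. CDC6, the ATPase that joins the complex at origins, had a difference of -1.20, and CDT1, which brings in the helicase, one of -1.05. GMNN encodes geminin, which binds CDT1 and blocks relicensing, and it fell least in this role. Its GD100 controls read 12.62, 12.62, 12.76, 12.56 and 12.56 and its GD165 controls 12.07, 12.26, 12.21 and 12.11. These values were close within each age and did not overlap, with a difference of -0.46 ± 0.10 (SE, adjusted p = 0.00374).

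All 8 helicase genes were lower at GD165 in controls, and 6 passed. CDC45L, the partner that activates the helicase, had the largest difference of all genes that passed. It read 8.23, 8.24, 8.47, 8.36 and 8.54 in GD100 controls and 6.77, 7.01, 7.59 and 6.14 in GD165 controls, a difference of -1.49 ± 0.21 (SE, adjusted p = 0.000179), which left the GD165 level at 35.7% of the GD100 level. The helicase subunits MCM3, MCM4 and MCM5 fell by almost the same amount, with differences of -1.12 ± 0.17, -1.14 ± 0.18 and -1.12 ± 0.20 (SE). MCM2 had a difference of -0.89 and MCM7 one of -0.67, and both passed.

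MCM6 and MCM10 were not separated by age. MCM6, the remaining ring subunit, had the dimmest probe of the set, with a mean signal of 43. Its GD100 controls read 5.66, 6.37, 4.92, 5.49 and 5.42 and its GD165 controls 5.29, 5.43, 6.06 and 4.55, so the groups overlapped and the highest GD165 control was above 4 of the 5 GD100 controls. The difference was -0.24 with a 95% interval of -1.32 to 0.83 (adjusted p = 0.798), which takes in the change of the other ring subunits. MCM10, a factor needed to start unwinding at the fork, was read at 9.49, 6.99, 10.56, 10.54 and 7.64 in GD100 controls and at 7.81, 8.03, 4.88 and 4.93 in GD165 controls. Animals of 1 group thus differed by more than 3 log2 units although every array was well above background. MCM10 had the largest fitted difference of all 40 genes, -2.63 ± 1.04 (SE), but did not pass (adjusted p = 0.0862). The pooled within-group SD was 1.66 for MCM10 and 0.80 for MCM6, against a median of 0.25 over the 40 genes. The plot of MCM levels by animal sets these 2 genes beside the others.

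**Figure D2:**
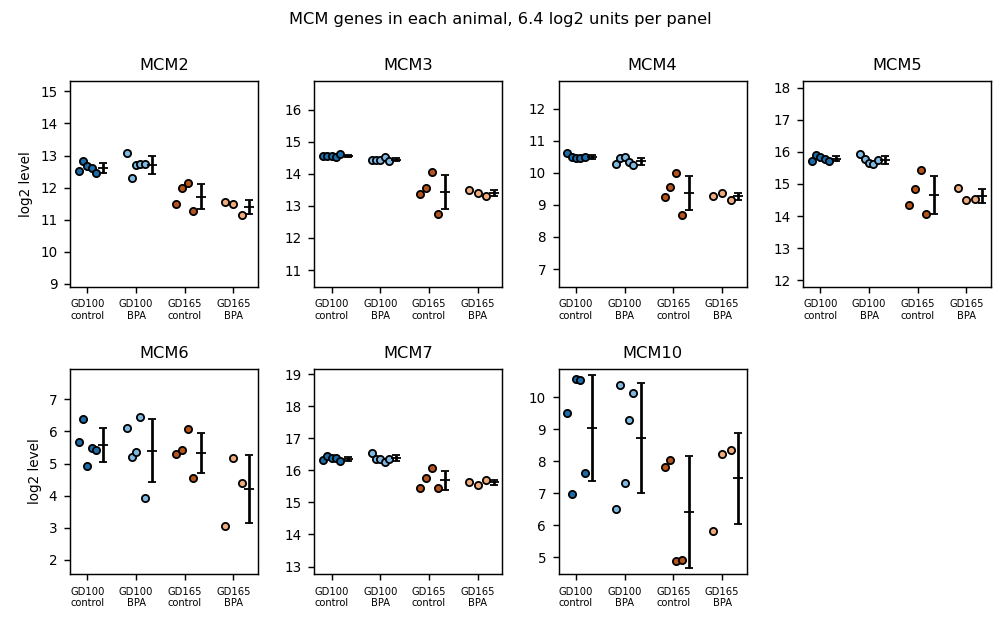
Log2 level of MCM2, MCM3, MCM4, MCM5, MCM6, MCM7 and MCM10 in each animal (points) of the 4 groups, with the group mean and SD as bars. Each panel spans the same number of log2 units but has its own range, and levels of different probes are not comparable. MCM6 and MCM10 spread widely within groups, and in the other panels the GD165 points lie below the GD100 points.

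All 6 polymerase genes were lower at GD165 in controls, and 5 passed. POLE, the catalytic subunit of polymerase epsilon on the leading strand, was at 9.92, 9.89, 9.95, 10.19 and 9.42 in GD100 controls and at 8.43, 8.95, 9.28 and 8.34 in GD165 controls. The lowest GD100 animal lay just above the highest GD165 animal, and the difference was -1.12 ± 0.20 (SE, adjusted p = 0.000984). POLA2, the B subunit of polymerase alpha, had a difference of -0.94, PRIM1, the primase catalytic subunit, one of -0.79, and POLA1, the catalytic subunit of polymerase alpha, one of -0.68. POLD1, the catalytic subunit of polymerase delta, had the smallest difference of the role and also the smallest spread of the whole set, a pooled SD of 0.095. It read 10.23, 10.28, 10.33, 10.26 and 10.16 in GD100 controls and 9.62, 9.73, 9.80 and 9.50 in GD165 controls. With a difference of -0.59 ± 0.08 (SE, adjusted p = 0.0001), this modest fall was among the best measured. POLE2, an accessory subunit of polymerase epsilon, did not pass. Its GD100 controls were at 11.23, 10.78, 11.23, 11.12 and 10.49 and its GD165 controls at 9.04, 10.65, 10.84 and 10.18, where GD165 control 1 was far below the other 3, and the difference was -0.79 ± 0.30 (SE, adjusted p = 0.0769).

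All 5 genes of the sliding clamp and its loader fell in controls. PCNA, the clamp itself, read 14.79, 14.71, 14.82, 14.73 and 14.08 at GD100 and 13.99, 13.72, 14.29 and 13.27 at GD165. GD100 control 5 lay below the highest GD165 control, so PCNA was the only gene of the 34 whose control groups overlapped, and its difference was -0.81 ± 0.19 (SE, adjusted p = 0.006). The loader subunits RFC5, RFC2 and RFC3 had differences of -0.79, -0.73 and -0.70. RFC4 had the smallest, with 12.82, 12.98, 13.06, 12.79 and 13.17 in GD100 controls and 12.54, 12.45, 12.51 and 11.87 in GD165 controls and a difference of -0.62 ± 0.13 (SE, adjusted p = 0.00378). Clamp and loader genes thus moved over a narrow span, from -0.81 to -0.62.

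In controls, genes for single-stranded DNA and the lagging strand moved least of the roles, with a median of -0.40, and 1 of 4 passed. LIG1, the ligase that seals Okazaki fragments, was at 14.91, 14.99, 15.23, 14.94 and 15.05 in GD100 controls and at 14.31, 14.44, 14.74 and 13.81 in GD165 controls, with a difference of -0.70 ± 0.16 (SE, adjusted p = 0.00513). RPA2 and RPA3 are subunits of the protein that coats single-stranded DNA, in repair as well as in replication. RPA2 read 13.99, 14.18, 13.78, 14.07 and 13.92 at GD100 and 13.44, 13.71, 13.95 and 13.27 at GD165 in controls, a difference of -0.39 ± 0.13 (SE, adjusted p = 0.0394). For RPA3 the GD100 controls were at 12.79, 12.82, 12.77, 12.95 and 12.66 and the GD165 controls at 12.14, 12.55, 12.68 and 12.50, a difference of -0.33 ± 0.14 (SE, adjusted p = 0.12). Control groups overlapped for both RPA genes. FEN1, the nuclease that trims Okazaki fragments, was at 10.54, 10.67, 10.78, 9.68 and 10.60 and at 9.95, 10.08, 10.42 and 9.75, and GD100 control 4 stood below all 4 GD165 controls rather than with its own group. The FEN1 difference was -0.41 ± 0.18 (SE, adjusted p = 0.137), and without that animal it was -0.60 and passed (adjusted p = 0.0032).

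Both chromatin assembly genes fell in controls. CHAF1A and CHAF1B are subunits of the factor that deposits histones behind the fork. CHAF1A was at 14.08, 14.08, 14.08, 14.16 and 14.29 in GD100 controls and at 13.10, 13.12, 13.56 and 12.89 in GD165 controls, a difference of -0.97 ± 0.10 (SE, adjusted p = 2.65e-05). CHAF1B was at 8.24, 8.21, 7.90, 8.15 and 8.12 and at 7.30, 7.41, 7.73 and 6.91, a difference of -0.78 ± 0.14 (SE, adjusted p = 0.00101). Neither gene had overlapping groups.

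All 4 genes for DNA precursors fell, and 3 of them were among the 5 largest falls that passed. TYMS, thymidylate synthase, read 7.42, 7.67, 8.03, 7.81 and 7.65 in GD100 controls and 5.90, 6.42, 7.13 and 6.05 in GD165 controls, a difference of -1.34 ± 0.22 (SE, adjusted p = 0.000494). RRM2, the small subunit of ribonucleotide reductase that is made in S phase, had a difference of -1.31, and TK1, the cytosolic thymidine kinase, one of -1.28. RRM1, the large subunit of ribonucleotide reductase, fell least. It was at 13.16, 13.32, 13.76, 13.57 and 13.49 in GD100 controls and at 12.76, 12.88, 12.87 and 12.47 in GD165 controls, a difference of -0.72 ± 0.16 (SE, adjusted p = 0.00597). Of 6 genes that handle nucleotides outside S phase, 1 passed, and it was higher at GD165. This was SAMHD1, which breaks down deoxynucleotides, with a difference of 0.67 ± 0.13 (SE, adjusted p = 0.00172). The mitochondrial kinase TK2 and the alternative small subunit RRM2B had differences of 0.39 ± 0.22 and 0.15 ± 0.12 (SE), neither past the threshold.

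All 4 genes of the switch into S phase fell. E2F2, an activating E2F factor, had the largest difference of this role. It read 9.52, 9.77, 9.63, 9.66 and 9.45 in GD100 controls and 7.87, 8.33, 8.76 and 8.16 in GD165 controls, with groups well apart and a difference of -1.33 ± 0.14 (SE, adjusted p = 1.86e-05). E2F1, another activator, had a difference of -1.18, and CCNE2, a cyclin that activates CDK2 at the start of S phase, one of -1.27. CCNE1, the related cyclin, fell least, from 12.45, 12.22, 11.99, 12.34 and 12.16 to 11.23, 11.42, 11.88 and 10.93, a difference of -0.86 ± 0.16 (SE, adjusted p = 0.00168). The checkpoint pair fell too. CHEK1, a kinase that slows the cycle when forks stall, was at 11.11, 11.17, 11.58, 11.59 and 11.35 and at 10.18, 10.45, 10.80 and 10.24, a difference of -0.94 ± 0.14 (SE, adjusted p = 0.000273). BRCA1, a repair factor that protects forks, was at 13.78, 13.87, 13.81, 13.85 and 13.86 and at 12.89, 12.86, 13.36 and 12.96, a difference of -0.82 ± 0.12 (SE, adjusted p = 0.000295). Its 5 GD100 controls lay within 0.1 of each other.

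Other genes of the same pathway and of mitosis were counted beside the 40. Of 43 further replication genes measured out of 50 listed, 38 were lower at GD165 in controls and 5 higher, with a median of -0.37. Of the 43, 15 passed with a lower level, 1 passed with a higher level and 27 did not pass. The largest fall that passed there was E2F8, a repressive E2F factor (-1.74 ± 0.17, SE, adjusted p = 1.41e-05), followed by CLSPN, a fork checkpoint adaptor, at -1.46. POLD4, the smallest polymerase delta subunit, rose (0.68 ± 0.15, SE, adjusted p = 0.00553). EXO1, an exonuclease of repair, had a larger difference of -1.92 ± 0.62 (SE) that did not pass (adjusted p = 0.0389). Of the origin recognition subunits ORC2, ORC3, ORC4 and ORC5, 0 passed, with differences of -0.07 to -0.36 and unadjusted p from 0.00118 to 0.457. Of 22 mitosis genes measured out of 24 listed, 21 fell and the median was -1.24. MKI67, the gene of the proliferation antigen Ki-67, had a difference of -1.68 ± 0.25 (SE, adjusted p = 0.000251), and the kinetochore gene NUF2, at 0.01 ± 1.08 (SE), was the exception. For the Ki-67 protein, the paper's staining of cells near the fundus found no significant drop by GD165.

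Markers of other cells also moved with age, and their part in the fall of the replication genes was not tested. In controls, 13 of 15 leukocyte markers were higher at GD165, and 8 of the 15 had an unadjusted p under 0.05 in limma. Of these markers 2 passed, CD74 and LYZ, higher by 2.14 and 1.99, while the median of the 15 was 0.51. The summed signal of the 15 was 57200 to 77280 in GD100 controls and 119505 to 156469 in GD165 controls. Bright markers weigh most in this sum, and CD74, with mean levels of 13.72 and 15.87, was the brightest at GD165. Of the 15, 13 were well above background on all 17 arrays and CD163 on none. All 10 smooth muscle markers were higher and 3 passed (7 at an unadjusted p under 0.05), with summed signals of 1684515 to 2332908 and 2075902 to 2792714. All 12 skeletal muscle markers were higher and 4 passed (9 at an unadjusted p under 0.05), with summed signals of 14303 to 15940 and 25149 to 210844. Of 12 squamous epithelium markers, 10 were higher and 0 passed (6 at an unadjusted p under 0.05), with sums of 12135 to 20809 and 13387 to 139596. Of 11 erythroid markers, 9 were lower and 2 higher at GD165, with a median of -0.17. The 1 that passed was higher, by 6.46, and the summed signals, which globins dominate, were 566644 to 1016856 and 590758 to 1817049. Of 3 germ cell markers, 2 were lower and 0 passed (0 unadjusted), with a median of -0.94. Their sums, 6653 to 10086 and 9102 to 12739, came mostly from the bright marker that was higher, by 0.22.

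The exposed animals gave a comparison of age whose group means share no array with the one in controls. The p-values of both comparisons rest on 1 spread fitted to all 17 arrays. All 40 genes were again lower at GD165, and 28 passed, against 55.3% of all probes that were lower and 4.86% that passed with a lower level. The median difference was -0.85, against -0.05 for all probes, and 33 genes had groups that did not overlap, lower at GD165 (15.4% of all probes). E2F2 had the largest difference, -1.55 ± 0.15 (SE, adjusted p = 2.92e-05). Its 5 exposed GD100 animals read 9.63, 9.69, 9.82, 9.76 and 9.56 and its 3 exposed GD165 animals 8.19, 8.01 and 8.23, which lay close together within each age. CDC6 followed among genes that passed, from 7.89, 8.09, 7.87, 7.97 and 8.06 to 6.68, 6.66 and 6.45, a difference of -1.38 ± 0.18 (SE, adjusted p = 0.000201). TK1, at 14.86, 15.10, 15.20, 15.17 and 15.11 and 13.64, 13.67 and 13.99, had a difference of -1.32 ± 0.18 (SE, adjusted p = 0.000281). In each of these 3 genes the gap between ages was wider than the whole range within an age.

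Markers of other cells moved with age in the exposed animals too, and their part in the fall was not tested. Of the 11 erythroid markers 9 were lower, with a median of -1.87. Of these markers 2 passed with a lower level and 1 with a higher level, 9 had an unadjusted p under 0.05, and the summed signals were 1002250 to 1200716 at GD100 and 341378 to 1234649 at GD165. Leukocyte markers were higher for 13 of 15, with a median of 0.53, and 2 passed, CD74 and LYZ. The sums of the 15 were 58513 to 75885 and 97960 to 183374, with CD74 again the brightest at GD165. All 10 smooth muscle and all 12 skeletal muscle markers were higher, and 1 of each passed. Their sums went from 1782783 to 2169447 to 1952865 to 2584839 and from 13460 to 23407 to 22127 to 108073. Of 12 squamous epithelium markers 7 were lower and 0 passed (1 unadjusted), with sums of 14158 to 23566 and 12430 to 18808, and of 3 germ cell markers 2 were lower and 0 passed (2 unadjusted), with 6804 to 14249 and 7195 to 13504.

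By role, the exposed animals showed falls past the threshold in 5 of 5 licensing genes, 6 of 8 helicase genes, 4 of 6 polymerase genes, 2 of 5 clamp and loader genes, 1 of 4 lagging strand genes, 2 of 2 chromatin genes, 3 of 4 precursor genes, 3 of 4 switch genes and 2 of 2 checkpoint genes. Clamp and loader genes moved least here, with a median of -0.59, against -0.63 for the lagging strand genes. RFC5 had the smallest difference, -0.33 ± 0.17 (SE, adjusted p = 0.183), with levels of 11.36, 11.53, 11.45, 11.18 and 11.39 at GD100 and 11.17, 11.23 and 10.75 at GD165. These groups overlapped. MCM6 had a difference of -1.20 ± 0.55 (SE, adjusted p = 0.135) and MCM10 one of -1.26 ± 1.13 (SE, adjusted p = 0.462), again with wide errors. The plot of age differences shows the controls and the exposed animals side by side. Leaving out exposed GD165 animal 4 left 15 genes past the threshold, and slide as a fixed block left 18.

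**Figure D3:**
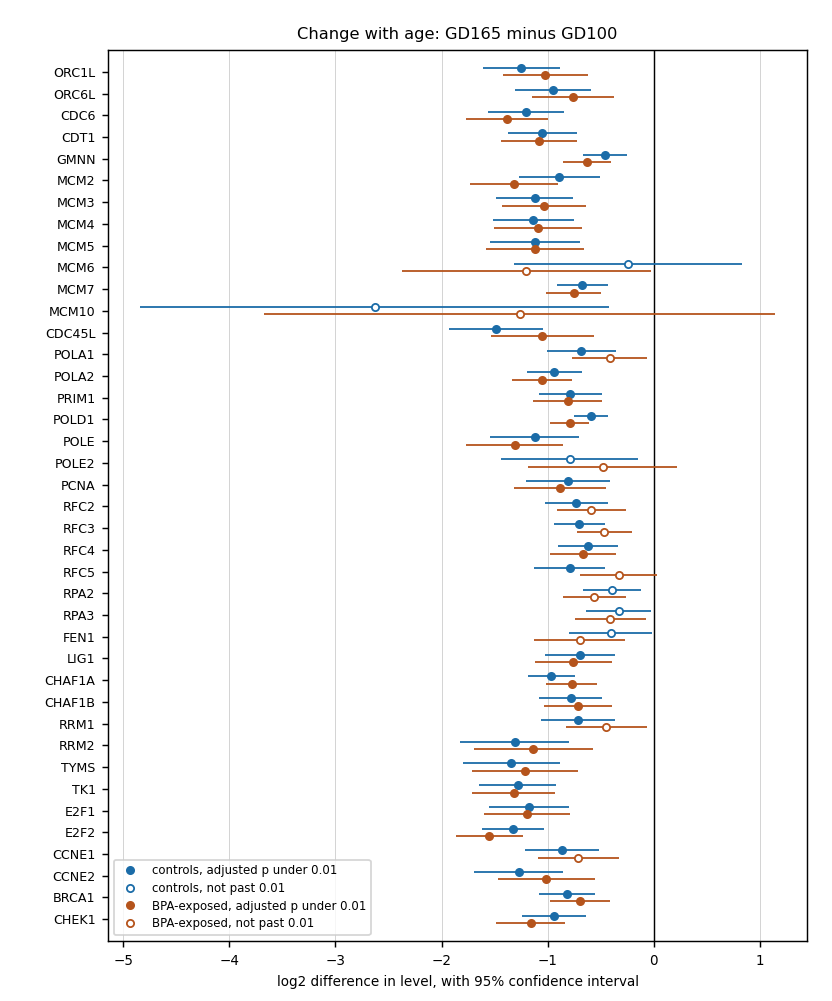
Difference in log2 level between GD165 and GD100 (GD165 minus GD100) for each of the 40 genes, in controls (blue) and in BPA-exposed animals (orange), with 95% confidence intervals. Filled points passed an adjusted p of 0.01. All points lie below 0, most between -0.3 and -1.5, and the longest intervals belong to MCM6 and MCM10.

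In controls, the count of 34 was 27 to 35 when any 1 animal was left out, and 19 when limma was fitted to the 2 control groups alone. Within slides, 1 GD165 and 1 GD100 control could be set side by side on each of 2 slides, where the median of the 40 genes was -0.97 and -0.91 and 39 genes were lower in each pair.

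The older controls differed among themselves more than any other group. A score for each animal, the mean over the 40 genes of the log2 level centered on each gene's mean, was 0.38 ± 0.07 (SD, n = 5) in controls and 0.38 ± 0.06 (SD, n = 5) in exposed animals at GD100. At GD165 it was -0.55 ± 0.33 (SD, n = 4) and -0.52 ± 0.05 (SD, n = 3). The 4 GD165 controls scored -0.69, -0.43, -0.17 and -0.94, so controls 5 and 6 marked the ends. GD165 control 5 was the highest of its group for 33 of 40 genes, against 26% of all probes. GD165 control 6 was the lowest for 27 of 40, against 25.9% of all probes. The SD of the GD165 controls was the largest of the 4 groups for 32 of 40 genes, against 32.3% of all probes. No score of a GD165 animal reached that of a GD100 animal.

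The mitosis genes ordered the older animals differently. GD165 controls 1, 3, 5 and 6 had mitosis scores of -0.94, -0.92, -0.49 and -0.65, and the exposed animals 3, 4 and 5 scored -0.82, -0.50 and -0.01. Exposed animal 5 thus stood highest for mitosis genes while its replication score, -0.48, was close to those of the other exposed animals, -0.57 and -0.51. Marker scores of other cells stood beside these. GD165 control 5 and exposed animal 5 had the highest skeletal muscle scores, 4.18 and 3.53, and the other GD165 animals lay between -0.39 and 1.65. GD165 control 6 had the highest squamous epithelium score, 3.17, against -0.80 to 0.76 in the others. The part of such cells in the differences between animals was not tested.

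**Figure D4:**
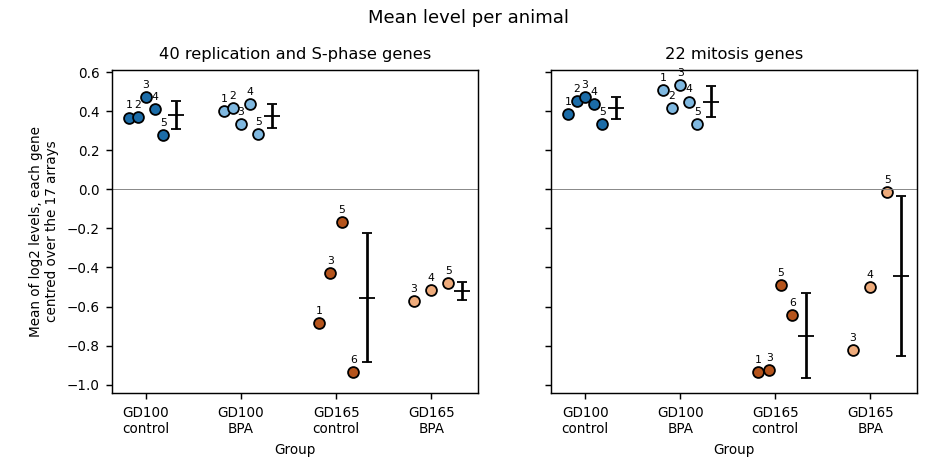
Mean log2 level per animal over the 40 replication and S-phase genes (left) and over 22 mitosis genes (right), each gene centered over the 17 arrays, with the group mean and SD as bars and the replicate number beside each point. In both panels every GD165 animal lies below every GD100 animal, and the left panel shows GD165 controls from -0.94 to -0.17 around 3 exposed animals near -0.52.

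BPA exposure was compared with control at each age. The study's own error-weighted test, not repeated here, called differences over the array at both ages, minimal at GD100 and more at GD165. At GD100, 0 of 40 genes passed in limma, as did 0% of all probes. At an unadjusted p under 0.05 there were likewise 0 genes, against 3.79% of all probes. Exposed animals were higher for 20 genes and lower for 20 (46.7% of all probes were lower), and the median difference was 0.00. The groups overlapped for all 40 genes, and did not for 0.782% of all probes. The smallest p belonged to RFC5, the clamp loader subunit, with 11.70, 11.77, 11.55, 11.31 and 12.02 in controls and 11.36, 11.53, 11.45, 11.18 and 11.39 in exposed animals. These overlapped, and the difference was -0.29 ± 0.15 (SE, 95% interval -0.60 to 0.03, adjusted p = 1). FEN1 came next, where the low GD100 control 4 lay apart from exposed levels of 10.71, 10.67, 10.72, 10.86 and 10.64, with a difference of 0.27 ± 0.17 (SE, adjusted p = 1). RFC2, another loader subunit, ran from 7.69 to 8.07 in controls and from 7.37 to 8.04 in exposed animals, overlapping, with a difference of -0.19 ± 0.13 (SE, adjusted p = 1). Among markers of other cells, 11 of 11 erythroid (median 0.26), 10 of 12 skeletal muscle and 11 of 15 leukocyte markers were higher in exposed animals. Smooth muscle markers were lower for 8 of 10. In each of these lists 0 passed (0 at an unadjusted p under 0.05 in limma), and their part was not tested.

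The intervals give a range of effects for each gene, under 1 spread shared by the 4 groups of animals. At GD100, the 95% interval lay within a 2-fold change in either direction for 38 of 40 genes and within a 1.5-fold change for 35. The median distance from the estimate to the end of the interval was 0.33 log2 units. MCM6 and MCM10 were the genes whose intervals reached beyond 2-fold, -1.18 to 0.85 and -2.40 to 1.77. For TK1, which had one of the largest age differences, the BPA interval at GD100 was -0.34 to 0.35.

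At GD165, 0 of 40 genes passed in limma, as did 0% of all probes, and at an unadjusted p under 0.05 there were 0 genes, against 8.61% of all probes. Exposed animals were higher for 19 genes and lower for 21 (55.3% of all probes were lower), with a median difference of -0.02. RFC3, a clamp loader subunit, had the smallest p. Its controls read 9.61, 9.76, 9.68 and 9.22 and its exposed animals 9.81, 9.81 and 9.85, so all 3 exposed animals were above all 4 controls, with a difference of 0.25 ± 0.13 (SE, adjusted p = 0.597). CHEK1 was the other gene whose groups did not overlap, with controls at 10.18, 10.45, 10.80 and 10.24 and lower exposed animals at 10.01, 10.17 and 10.14, a difference of -0.31 ± 0.16 (SE, adjusted p = 0.606). Groups did not overlap for 2 of 40 genes and for 7.31% of all probes. MCM6 had the largest difference, -1.13 ± 0.57 (SE, adjusted p = 0.606). Its controls read 5.29, 5.43, 6.06 and 4.55 and its exposed animals 3.05, 5.16 and 4.40. These groups overlapped, and the lowest exposed value was not well above background. Markers of other cells were compared too, and their part was not tested. In exposed animals 11 of 12 squamous epithelium markers were lower (median -1.22, 6 at an unadjusted p under 0.05 in limma). So were 10 of 11 erythroid (median -0.65, 1 unadjusted), 11 of 12 skeletal muscle and 9 of 10 smooth muscle markers. Leukocyte markers were higher for 9 of 15 (1 unadjusted) and germ cell markers for 2 of 3. In each list 0 passed.

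The interval at GD165 lay within 2-fold for 37 of 40 genes, all but MCM6, MCM10 and POLE2, and within 1.5-fold for 25, with a median distance of 0.40 log2 units to its end. GD165 controls had the largest SD of the 4 groups for 32 of 40 genes, so the shared spread can make these intervals too narrow. The center of the set moved with GD165 controls 5 and 6, in opposite directions. Without GD165 control 5 the median was 0.17 and 34 genes were higher in exposed animals. Without GD165 control 6 it was -0.11 and 15 were higher. With slide as a fixed block, to which GD165 control 5 adds nothing because it lay alone on its slide, the median was 0.19, and within the slide that held 1 control and 2 exposed animals it was 0.15. In each of these fits 0 genes passed. Of the 22 mitosis genes, 22 were higher in exposed animals, with a median of 0.27, and 0 passed (4 at an unadjusted p under 0.05). That shift rested largely on exposed animal 5. Without it 15 were higher and the median was 0.05, with 0 genes at an unadjusted p under 0.05, and without exposed animal 3 the median was 0.49 and 22 were higher, with 14 such genes. In both of these fits 0 passed. The plot of BPA differences gives the 40 genes at both ages.

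**Figure D5:**
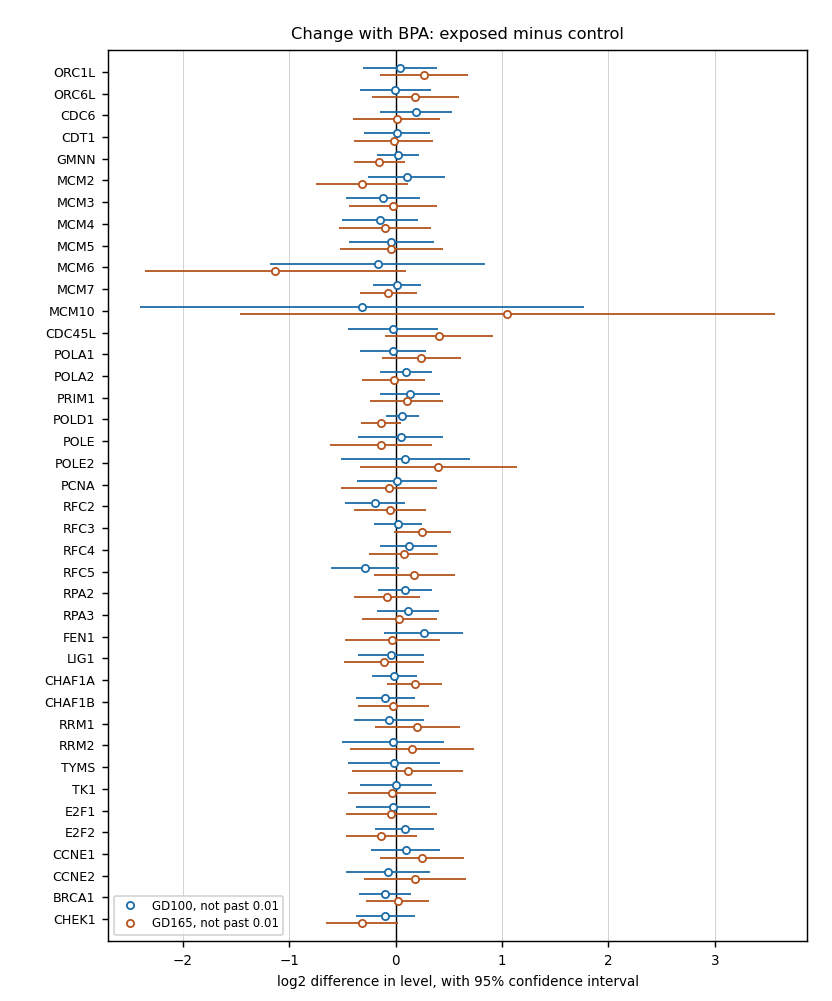
Difference in log2 level between BPA-exposed and control animals (exposed minus control) for each of the 40 genes at GD100 (blue) and at GD165 (orange), with 95% confidence intervals. All points are open because 0 genes passed an adjusted p of 0.01. Most intervals lie between -1 and 1 and take in 0, and those of MCM6 and MCM10 are far wider.

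Whether the BPA difference itself changed with age was tested as an interaction, and 0 of 40 genes passed in limma, as did 0% of all probes. There were 0 genes at an unadjusted p under 0.05, against 7.83% of all probes, and the median was -0.01. RFC5 had the smallest p, with an interaction of 0.46 ± 0.23 (SE, 95% interval -0.03 to 0.96, adjusted p = 0.652), a BPA difference of -0.29 at GD100 and of 0.17 at GD165. For E2F2 the interaction was -0.22 ± 0.20 (SE, 95% interval -0.65 to 0.21). Intervals lay within 2-fold for 36 of 40 genes and within 1.5-fold for 17, and reached past 1.5-fold in at least 1 direction for the others. The median distance from the estimate to the end of the interval was 0.52 log2 units, under the same shared spread.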

How the data were processed

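Per the labels and the study's methods, the authors hybridized RNA from each uterus to 1 array and extracted signals with Agilent Feature Extraction 9.5 at its 1-color defaults. The deposited values are linear intensity values per spot after background subtraction, without scaling between arrays. The deposited table of all arrays held the same values in 711467 of 711467 cases and was used as an alternative.

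Control and outlier spots were left out, a probe's value was the mean log2 signal of its 2 spots, and arrays were aligned at their 75th percentiles, which ran from 5524 to 7319 before this step and were set to 12.62 on the log2 scale. Median signal was 17.5 to 24.2 times the background. The number of arrays limits the precision. Gene names come from the descriptions in the array's annotation, and the probe with the highest mean signal stood for a gene. No coordinates are given, since the annotation names no genome build.

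limma 3.58.1 in R 4.3.3 (lmFit, eBayes) was fitted to 17 arrays in 4 groups, with two-sided tests and Benjamini-Hochberg adjustment over 20217 probes. The threshold of 0.01 is that of the study's methods, whose error-weighted test was not repeated. The code was tested on simulated data, where the pooled share of false calls was somewhat above the nominal 0.01. The bound for that share was set after simulated results were seen. Tables and scores were made in Python 3.11.15. All members with a probe are named. Levels per animal are given for the largest and smallest age difference in controls of each role, for genes that did not pass there and for the 3 smallest p of each BPA comparison, and a few others were chosen after their values were seen. The members and the gene lists were chosen with earlier results of these data known. The alternatives were other background correction (normexp, offset of 50), quantile normalization or scaling to the median, outlier spots kept, dim probes filtered out (17149 kept), only the compared groups, slide and replicate blocks, other moderation, a threshold of 0.05 and leaving out each animal.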

Additional observations from a re-analysis of the deposited data

Results flagged for a closer look

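Of 123 groups of animals examined, 40 genes and the score over them in each of the 3 groups of 4 or 5 animals, 11 held an animal whose gap to its nearest neighbor took up more of the group's range than Dixon's 95% limit. Chance alone gives about 1 in 20 groups. In GD100 controls, GMNN read 12.76 in animal 3 against 12.56 to 12.62 in the others, MCM4 10.61 in animal 1 against 10.47 to 10.50, PCNA 14.08 in animal 5 against 14.71 to 14.82, and FEN1 9.68 in animal 4 against 10.54 to 10.78. Exposed GD100 animal 1 stood out for 4 genes. POLA2 was at 12.73 there against 12.33 to 12.41, PRIM1 at 9.68 against 9.02 to 9.14, BRCA1 at 14.07 against 13.62 to 13.70, and RRM1 was low at 12.89 against 13.48 to 13.61. That animal also had the highest germ cell score of the GD100 animals, 4.13 against -0.85 to 0.96 in the others. Its skeletal muscle score was the highest too, 0.50 against -1.62 to -0.88. The part of such cells in its values was not tested. LIG1 was at 15.38 in exposed GD100 animal 2 against 14.80 to 14.93, and CHAF1B at 7.78 in exposed GD100 animal 3 against 8.04 to 8.13. RFC4 was at 11.87 in GD165 control 6 against 12.45 to 12.54, the animal that was lowest of its group for 27 genes. The score itself was within the limit in all 3 groups.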

How the results depend on the processing

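The settings were planned, except that leaving out each GD165 animal for the mitosis genes was added after seeing the data. The direction of the median did not change for either comparison of age. The count of genes past the threshold in controls was 34. It was 19 in a fit to the control groups alone and 16 with the replicate number as a block, to which GD165 control 6 adds nothing, and 27 to 35 when any animal was left out. The other settings gave 29 to 35 genes. In exposed animals the count was 28, with 18 under slide as a fixed block, 15 to 31 when an animal was left out, the lowest without exposed GD165 animal 4, and 23 to 33 under the others. The median in controls was -1.03 to -0.79 and in exposed animals -0.88 to -0.82 when an animal was left out. For the BPA comparisons and the interaction, 0 genes passed under every setting. Leaving out an animal gave medians of -0.03 to 0.04 for BPA at GD100, -0.11 to 0.17 for BPA at GD165 and -0.11 to 0.19 for the interaction, the highest of the last 2 without GD165 control 5, and slide as a fixed block gave 0.19 for BPA at GD165. The median BPA difference of the mitosis genes at GD165, 0.27, was 0.05 to 0.49 when an animal of that age was left out, the lowest without exposed animal 5. The causes were not tested. Replicate numbers did not pair animals: the correlations of same-numbered deviations ran from -0.17 to 0.12.

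No gene passed the threshold in both directions across the settings. The age difference changed sign for MCM6 in controls, from -0.60 to 0.32, and for POLE2 in exposed animals, from -0.61 to 0.23. Across the genes and settings for age in controls, 1086 values kept the side of the threshold, 71 no longer passed and 3 newly passed, and for age in exposed animals 1062, 81 and 17. In controls, PCNA no longer passed in 10 of 29 settings, POLA1 in 9, RRM1 in 8 and LIG1 in 6. In exposed animals ORC6L no longer passed in 15. Array number and, for MCM6, a signal near background limit these values.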
